A study of Mus musculus with 17 samples.

Results

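The 39 genes described here carry out DNA replication and cell division, and they were followed in sorted liver and adipose macrophages of mice on a standard diet or a diet rich in fat and sugar. They were chosen by symbol. The list holds 18 genes of S phase, which license and copy the genome, and 21 genes of mitosis, which condense and separate the chromosomes. Each of the 39 had 1 row among the 40548 genes of the count table, and all 39 were among the 15285 genes that passed the filter on low counts.

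Before S phase, Cdc6 and Cdt1 load the MCM helicase onto origins of replication. Cyclin E and CDK2 then fire the origins, and E2F factors switch on the genes of this step together. Genes of mitosis peak later, under CDK1 with cyclins A and B, and many of their promoters carry the cell cycle homology region (CHR) that the DREAM and B-MYB-FOXM1 complexes bind. Tissue macrophages can divide where they live: Kupffer cells, the macrophages of the liver sinusoids, renew themselves in this way, and division of adipose tissue macrophages is known from obese mice.

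RNA was sequenced from 17 libraries of sorted cells of C57BL/6 mice of the Cx3Cr1-GFP/WT line, which carry a fluorescent reporter in 1 copy of the chemokine receptor gene Cx3cr1. Mice were fed for 16 weeks with standard chow (STD) or with a high fat, high sucrose diet (HFD), labelled D12492. STD KC (n = 3) and HFD KC (n = 5) were F4/80-high liver cells bearing TIM4, a surface protein of resident Kupffer cells. Cx3cr1pos HFD (n = 4) were liver macrophages positive for the reporter, and ATM HFD (n = 5) came from adipose tissue and were gated by CD64 and F4/80. All animals carried the reporter, so no group has 2 intact copies of Cx3cr1. Age and sex are not given in the labels, and no label says whether a library came from 1 animal.

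The names of the libraries matter for these genes. STD KC libraries are named std1 to std3 and labelled frac_neg. Within HFD KC, hfd1 and hfd2 are labelled frac_neg, whereas hf1, hf2 and hf3 are labelled CD68, so that name and sort label cannot be told apart there. ATM HFD libraries bear the names hfd1, hfd2, hf1, hf2 and hf3 with the single label frac_neg, and Cx3cr1pos HFD libraries are hfd2, hf1, hf2 and hf3, all frac_pos. Since the labels do not say that replicates came from separate animals, p-values measure the spread between these libraries, which may be technical.

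Library totals lay between 25644835 and 38207943 counts. Levels are given as CPM, counts relative to a library total that was scaled by the trimmed mean of M values. Mitochondrial genes took 0.295 to 1.36% of the counts. The 8 macrophage markers summed to 15232 to 24852 CPM over the 17 libraries, and none of them was at 0. Kupffer cell markers, 7 genes such as Timd4 and Clec4f, summed to 44344 to 46933 CPM in STD KC and 34418 to 49497 in HFD KC, against 281 to 337 in ATM HFD and 7773 to 15623 in Cx3cr1pos HFD. The library hfd2 of HFD KC stood apart: across all genes its log2 CPM lay closest to hfd2 of Cx3cr1pos HFD (r = 0.973), not to its own group. Results that rest on either library are therefore given with and without it.

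Promoter sequences are shown because the sets differ in the motifs their promoters hold. Whether a motif goes with a change in level was not tested. The sequences are from RefSeq on GRCm38.p6 and run 5′ to 3′ on the gene's strand, from 250 bases before the annotated start to 50 after it. Of the S-phase members 15 of 18 matched an entry, and of the mitotic members 17 of 21. Mcm4, Gins2, Ccne2, Ccna2, Aurkb, Kif20a and Tpx2 have none. Capitals mark matches on either strand to TTTGAA (the CHR), TTTAAA (a CHR variant, the same on both strands), CCAAT, and 3 E2F cores. The first core is GCGGGAA, the second is GCGCCAA, and the third is GCGCGAA. In Mcm6 the second core, on the other strand, overlaps the third. Pcna lies at chr2:132253131-132253430, Tyms at chr5:30073576-30073875 and Mcm6 at chr1:128359656-128359955, all 3 on the minus strand. Birc5 lies at chr11:117848987-117849286 on the plus strand, and Ccnb2 at chr9:70421505-70421804 and Cenpf at chr1:189688037-189688336 on the minus strand. These are the 3 matched members of each set that were named in the most comparisons.
Pcna: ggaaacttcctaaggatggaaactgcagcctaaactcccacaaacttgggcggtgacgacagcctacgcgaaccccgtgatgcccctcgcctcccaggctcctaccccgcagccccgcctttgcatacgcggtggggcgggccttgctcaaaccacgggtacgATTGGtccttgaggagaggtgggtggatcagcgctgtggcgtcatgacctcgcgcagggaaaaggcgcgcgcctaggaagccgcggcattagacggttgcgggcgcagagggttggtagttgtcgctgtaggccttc
Tyms: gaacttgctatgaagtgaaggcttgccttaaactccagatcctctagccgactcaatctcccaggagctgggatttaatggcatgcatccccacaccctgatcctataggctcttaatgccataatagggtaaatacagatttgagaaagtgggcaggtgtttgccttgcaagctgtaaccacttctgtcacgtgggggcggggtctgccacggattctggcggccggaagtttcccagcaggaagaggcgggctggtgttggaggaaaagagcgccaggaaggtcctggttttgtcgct
Mcm6: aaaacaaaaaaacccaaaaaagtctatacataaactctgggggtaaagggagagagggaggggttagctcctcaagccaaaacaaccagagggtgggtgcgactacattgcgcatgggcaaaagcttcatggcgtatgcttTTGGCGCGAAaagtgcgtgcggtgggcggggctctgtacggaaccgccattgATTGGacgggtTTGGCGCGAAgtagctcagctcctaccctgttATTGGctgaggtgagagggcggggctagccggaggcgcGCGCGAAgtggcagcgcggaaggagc
Birc5: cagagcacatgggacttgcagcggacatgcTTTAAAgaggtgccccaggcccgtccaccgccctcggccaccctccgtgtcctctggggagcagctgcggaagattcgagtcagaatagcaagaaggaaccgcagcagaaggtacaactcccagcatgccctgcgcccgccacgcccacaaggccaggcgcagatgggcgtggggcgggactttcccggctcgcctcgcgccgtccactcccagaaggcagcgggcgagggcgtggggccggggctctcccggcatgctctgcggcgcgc
Ccnb2: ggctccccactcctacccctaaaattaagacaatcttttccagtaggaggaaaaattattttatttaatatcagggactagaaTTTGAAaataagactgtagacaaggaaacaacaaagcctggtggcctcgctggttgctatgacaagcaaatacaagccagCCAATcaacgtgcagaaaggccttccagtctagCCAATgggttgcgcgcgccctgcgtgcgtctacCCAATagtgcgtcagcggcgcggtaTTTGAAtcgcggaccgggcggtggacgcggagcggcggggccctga
Cenpf: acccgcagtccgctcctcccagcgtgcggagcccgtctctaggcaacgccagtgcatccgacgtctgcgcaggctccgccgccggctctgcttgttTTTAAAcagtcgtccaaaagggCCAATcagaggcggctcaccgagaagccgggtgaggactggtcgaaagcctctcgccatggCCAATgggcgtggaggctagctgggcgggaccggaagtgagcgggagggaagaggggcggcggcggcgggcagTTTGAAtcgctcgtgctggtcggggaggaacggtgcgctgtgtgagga

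The CHR letters TTTGAA stood in 12 of 17 mitotic promoters (70.6%) and in 1 of 15 S-phase promoters (6.67%), against 18.1% of 27025 mouse promoters of the same length. E2F cores showed the reverse, with 9 of 15 S-phase promoters (60.0%), 3 of 17 mitotic promoters (17.6%) and 8.21% of all promoters. CCAAT was in 15 of 17 mitotic promoters (88.2%) and 9 of 15 S-phase promoters (60.0%), and in 37.9% of all. The variant TTTAAA was in 7 of 17 mitotic (41.2%), 4 of 15 S-phase (26.7%) and 13.2% of all promoters. In the sequences above, Ccnb2 and Cenpf hold TTTGAA just after the start with CCAAT upstream of it, Birc5 holds only the variant, far upstream, Mcm6 has E2F cores and CCAAT, Pcna has CCAAT, on the other strand, and Tyms has no match. A match in letters is a description, not a binding site.

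Every member was detected in every group, at levels that spanned a wide range. Per kilobase of exon, Mcm3, a subunit of the MCM helicase, had the highest group mean of the 39 in each group, with 45.7 CPM per kilobase in STD KC and 30.98 in HFD KC, then 41.04 in Cx3cr1pos HFD, and 32.6 for ATM HFD. The lowest was Cenpf, a large kinetochore protein, with 0.426, 0.371, 0.517 and 0.891 in the same order. Next to Mcm3 stood Rrm2, the small subunit of ribonucleotide reductase, in STD KC and ATM HFD, and Mcm5 in HFD KC and Cx3cr1pos HFD. Neighbours in this order lie within each other's spread in many cases. Lengths are unions of exons in GENCODE vM21 and not the authors' own.

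**Figure D1:**
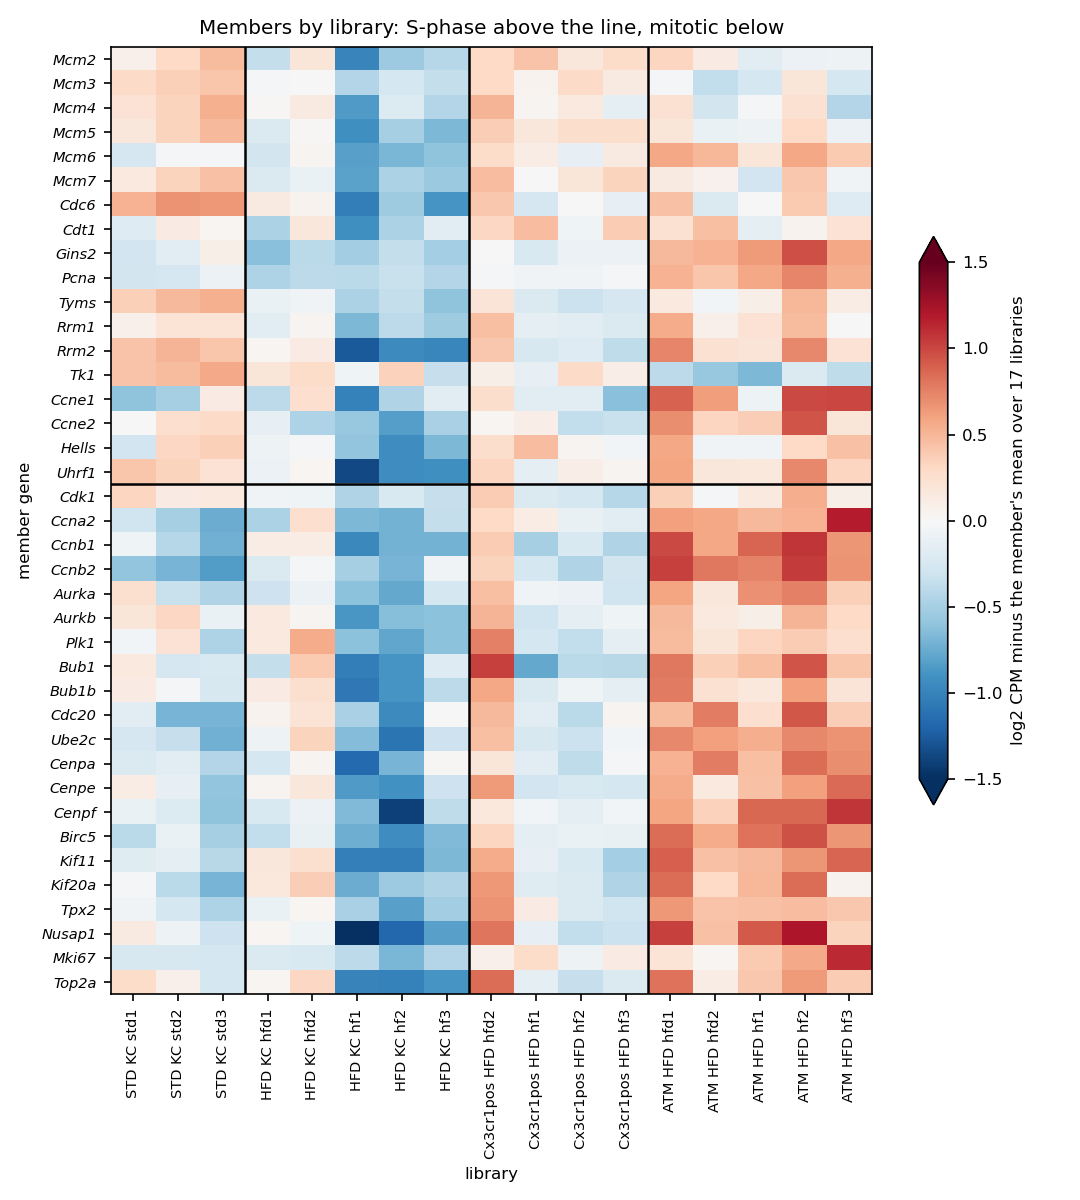
Heat map of the 39 members (rows, S-phase above the line) in the 17 libraries (columns, grouped): colour gives log2 CPM minus the mean of that gene over all libraries. The CD68 libraries hf1 to hf3 of HFD KC form a blue block in both sets, and ATM HFD is red for most mitotic members in all 5 libraries.

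The mean log2 CPM over the 18 S-phase members was 5.09 ± 0.13 (SD, n = 3) for STD KC and 4.49 ± 0.30 (n = 5) for HFD KC, and it was 4.95 ± 0.14 (n = 4) for Cx3cr1pos HFD and 5.11 ± 0.18 (n = 5) for ATM HFD. Over the 21 mitotic members it was 3.73 ± 0.20, 3.57 ± 0.43, 3.94 ± 0.36 and 4.54 ± 0.15 in the same order. Both lists order the groups, and not in the same way. S-phase genes were lowest in HFD KC, whose libraries (4.12 to 4.88) lay below every STD KC library (4.95 to 5.20), and about level in STD KC and ATM HFD. Mitotic genes were highest in ATM HFD (4.35 to 4.72), although hfd2 of Cx3cr1pos HFD (4.47) lay within its range, and the liver groups overlapped. In RNA from sorted pools, fewer dividing cells and less of these transcripts per cell cannot be told apart.

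**Figure D2:**
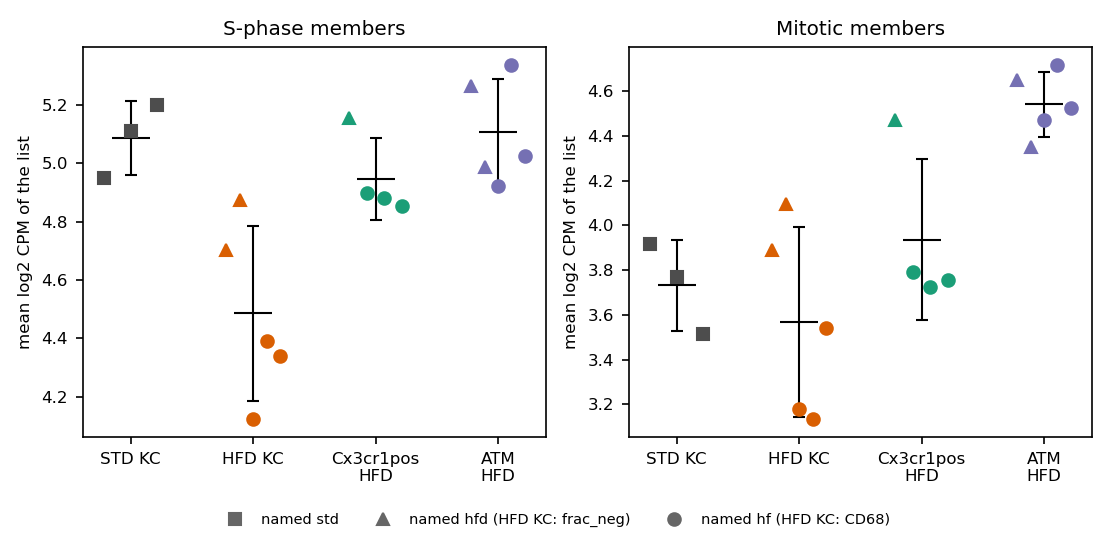
Mean log2 CPM of the S-phase members (left) and the mitotic members (right) in each library (points), with the group mean and SD (bars); marker shapes give the name prefix. In HFD KC the frac_neg libraries (triangles) lie above the CD68 libraries (circles) in both panels, and hfd2 lies above the other Cx3cr1pos HFD libraries.

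Which cell cycle genes differed between Kupffer cells of the diets was asked first. In HFD KC, 5 of the 18 S-phase members fell against STD KC: Mcm3, Mcm5 and Mcm7 of the replicative helicase, Cdc6, which helps load it, and Tyms, the thymidylate synthase that makes dTMP for new DNA. The falls were 1.48-fold to 1.99-fold. Across all genes tested, 3.4% passed the threshold of an adjusted p under 0.05 in edgeR's quasi-likelihood test, 2.27% as higher and 1.13% as lower. No mitotic member passed in edgeR (0 of 21; 1 higher and 1 lower at an unadjusted p under 0.05; 0 in DESeq2), and DESeq2 called 9 S-phase members lower. For DESeq2 and for unadjusted p, shares of all genes are not given, here or below. Those counts therefore cannot be set against the edgeR shares. Whether the S-phase and mitotic sets differ from each other was not tested.

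Mcm5 stood at 100.3, 113 and 125 CPM in STD KC, at 77.02 and 90.3 in the frac_neg libraries of HFD KC and at 47.3, 63.04 and 56.01 in its CD68 libraries. The groups did not overlap, and the log2 fold change was -0.76 (SE 0.16, adjusted p = 0.016). Tyms stood at 28.8, 31.6 and 32.7 CPM in STD KC, at 20.9 and 21.7 in the frac_neg and at 16.1, 17.6 and 14.8 in the CD68 libraries. Again every HFD KC library was below every STD KC library, with a log2 fold change of -0.77 (SE 0.15, adjusted p = 0.0091).

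Cdc6 stood at 18.4, 20.5 and 20.1 CPM in STD KC, at 14.1 and 13.3 in frac_neg and at 6.22, 8.88 and 6.91 in CD68 libraries (log2 difference -0.99, SE 0.25, adjusted p = 0.036). It had the largest fall of the 5, and its CD68 libraries lay below its frac_neg libraries. Mcm3, at 164, 172 and 179 CPM in STD KC, stood at 132 and 134 in frac_neg and 99.1, 111 and 105 in CD68 libraries (log2 difference -0.56, SE 0.13, adjusted p = 0.021). Mcm7 stood at 45.4, 51.9 and 55.7 CPM in STD KC, at 35.5 and 38.5 in frac_neg and at 23.5, 29.7 and 28.1 in CD68 libraries (log2 difference -0.72, SE 0.16, adjusted p = 0.023). In all 5 genes the order of levels was STD KC, then the frac_neg, then the CD68 libraries of HFD KC.

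The other S-phase members leaned the same way without passing. All 18 had a negative log2 fold change, with a median of -0.59 against 0.02 over all genes tested, and in 13 of 18 every HFD KC library lay below every STD KC library, a pattern seen in 6.58% of all genes (7.45% had the reverse pattern). Rrm2, which limits the supply of deoxynucleotides, stood at 83.8, 88.6 and 83.4 CPM in STD KC and at 63.7 and 68.2 in frac_neg and 25.9, 32.2 and 31.6 in CD68 libraries (log2 difference -0.94, SE 0.28, adjusted p = 0.072). Uhrf1, which guides maintenance of DNA methylation at the fork, stood at 28.8, 27.2 and 25.1 CPM in STD KC, at 20.3 and 22.1 in frac_neg and at 8.43, 11.3 and 11.5 in CD68 libraries (log2 difference -0.88, SE 0.25, adjusted p = 0.060). Their groups did not overlap, but the spread within HFD KC was wide. Mitotic members had a median of -0.13, with 15 negative and 6 positive values, and Mki67, the proliferation marker Ki-67, stood at 28.4, 28.5 and 28.001 CPM in STD KC and 28.9 and 28.8 in frac_neg and 25.6, 20.8 and 24.8 in CD68 libraries of HFD KC (log2 difference -0.13, SE 0.19, adjusted p = 0.79).

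The falls depended on the libraries used. With the 2 frac_neg libraries of HFD KC alone, which share their sort label with STD KC, no member passed in edgeR (0 of 39; 6 S-phase members lower and 2 mitotic members higher at an unadjusted p under 0.05), while 3.16% of all genes did. The S-phase median was then -0.35, with 17 of 18 values negative, and the mitotic median 0.22. Tyms had a log2 fold change of -0.54 (adjusted p = 0.14) and Mcm5 of -0.43 (0.17). With the 3 CD68 libraries alone, 12 S-phase members and 1 mitotic member fell, the medians were -0.84 and -0.46, and 2.45% of all genes passed. The count was also 0 without std2 or without std3, 3 without std1, 8 without hfd1 and 8 without hfd2. Shares of all genes are not given for these fits with 1 library left out. A loss of member calls cannot be told there from a general loss of calls. Fits restricted to 1 name prefix beside the std libraries called 14 members with hf (2.48% of all genes) and 0 with hfd (3.65%). Markers of other cells differed between the diets too. In edgeR 2 of 8 markers of B and plasma cells rose. Their summed level was 64.9 to 201 CPM in STD KC and 341 to 768 in HFD KC, with Pax5 at 0 in 3 of the 17 libraries. Of 12 T and NK cell markers 3 rose and 1 fell, with sums of 26.4 to 29.2 and 20.6 to 95.4 CPM. Of 8 dendritic cell markers 1 rose, and of 9 hepatocyte markers 1 rose. DESeq2 called 6 B and plasma cell, 7 T and NK cell and 2 dendritic cell markers higher. It also called 1 hepatocyte marker and 1 neutrophil and myeloid progenitor marker higher, and 1 T and NK cell marker lower. The part of these markers in the result was not tested.

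For genes of the same pathway that are not members, values in parentheses are the log2 fold change and then the adjusted p of edgeR's test. In HFD KC against STD KC, 3 of 38 other replication genes fell: Rfc4 of the clamp loader (-0.66 on the log2 scale, adjusted p = 0.0084), Lig1, which joins Okazaki fragments (-0.79, 0.015), and Prim2 of the primase (-0.49, 0.044). Of 40 other mitotic genes, Pttg1, the securin that holds separase in check, fell from 122 ± 9.62 to 84.9 ± 8.75 CPM (SD, n = 3 and 5; log2 fold change -0.52, 0.012). The 40 had a median of -0.31, with 34 negative values, 10 lower and 0 higher at an unadjusted p under 0.05, and DESeq2 called 4 lower. None of 17 genes of cyclin D, CDKs and CDK inhibitors and none of 21 tested E2F, RB and DREAM-MYB-FOXM1 regulators was called by edgeR. Of 10 genes of macrophage growth signals, Egr2, a transcription factor induced by growth factors, rose from 11.9 ± 4.67 to 34.7 ± 15.3 CPM (1.54, 0.022).

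**Figure D3:**
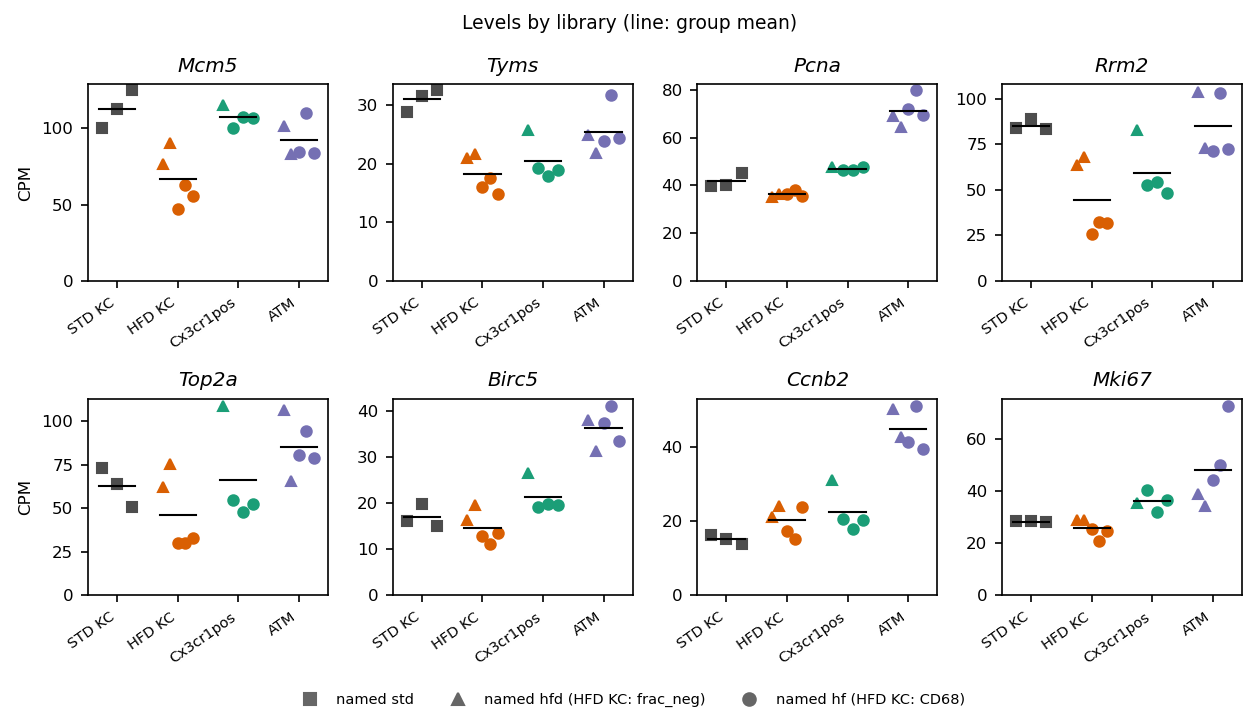
CPM of 8 members in each library (points) with group means (lines), each axis starting at 0. Mcm5, Tyms and Rrm2 are lower in HFD KC than in STD KC, most in the CD68 libraries, and Pcna, Birc5 and Ccnb2 are highest in ATM HFD.

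Within HFD KC the frac_neg libraries held more of nearly all these transcripts than the CD68 libraries. Of the 39 members, 37 had a higher mean level in frac_neg, with medians of 0.47 for S-phase and 0.73 for mitotic members on the log2 scale against 0.01 over all genes. In 13 of 18 S-phase and 16 of 21 mitotic members both frac_neg libraries lay above all 3 CD68 libraries, which held for 13.6% of all genes, while 15.2% had the reverse order. With 2 against 3 libraries, only Rrm2 passed in edgeR (63.7 and 68.2 against 25.9, 32.2 and 31.6 CPM, log2 difference 1.14, SE 0.17, adjusted p = 0.049), as did 0.0262% of all genes. At an unadjusted p under 0.05 there were 12 S-phase and 14 mitotic members, and DESeq2 called 4 and 8, all higher. The share of 0.0262% does not apply to these counts. The count was 0 when hfd1, hfd2, hf1 or hf2 was left out, and 10 without hf3, with no share of all genes given for these fits.

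Top2a, the topoisomerase that untangles sister chromatids, stood at 61.9 and 75.2 CPM in the frac_neg and at 30.2, 30.1 and 32.9 in the CD68 libraries, a log2 difference of 1.14 (SE 0.19, adjusted p = 0.080). The CD68 libraries lay close together and the frac_neg libraries well above them, at 68.6 ± 9.41 against 31.1 ± 1.59 CPM. Kif11, a kinesin that pushes spindle poles apart, stood at 12.5 and 13.1 against 5.42, 5.36 and 6.91 CPM (log2 difference 1.12, SE 0.19, adjusted p = 0.080). Plk1, a kinase of mitotic entry, stood at 13.6 and 18.03 against 7.96, 7.09 and 7.96 CPM (log2 difference 1.04, SE 0.19, adjusted p = 0.085). Not every member showed this. Pcna, the sliding clamp of the polymerases, stood at 34.98 and 36.5 CPM in frac_neg and at 36.5, 38.1 and 35.5 in CD68 libraries, and Gins2, part of the active helicase, at 12.3 and 14.3 and at 13.3, 14.9 and 13.4. Of the other lists, Pole, the leading strand polymerase, passed (1.28, adjusted p = 0.049), alone among 38 other replication genes, and 37 of 40 other mitotic genes had a positive difference, none of them called (27 higher at an unadjusted p under 0.05; 7 in DESeq2).

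Marker levels of other cells differed between these libraries too. Erythroid markers, 7 tested, summed to 49.7 to 99.2 CPM in frac_neg and 15.9 to 46.98 in CD68, with Slc4a1 at 0 in 7 of the 17 libraries. Neutrophil and myeloid progenitor markers summed to 10.2 to 15.4 and 2.29 to 5.45, with Ly6g and Camp at 0 in most of the 17 libraries. B and plasma cell markers went the other way, with 341 to 369.9 in frac_neg and 479 to 768 in CD68. Hepatocyte markers were higher in frac_neg in 9 of 9 estimates, 5 of them at an unadjusted p under 0.05, with sums of 289 to 663 and 134 to 292 CPM, and sinusoidal endothelial markers in 8 of 8, with 1804 to 3447 and 1335 to 3115. None of these markers was called by edgeR in this comparison. DESeq2 called 3 B and plasma cell markers lower and 1 erythroid marker higher in frac_neg. The part of these markers in the result was not tested.

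In ATM HFD, where hfd and hf libraries share 1 sort label, the members had no common direction between names. No member passed in edgeR (0 of 39; 1 mitotic member lower at an unadjusted p under 0.05; 0 in DESeq2), as against 0.0262% of all genes, and the medians were 0.04 for S-phase and -0.02 for mitotic members. Top2a stood at 106 and 65.8 CPM in hfd and at 80.7, 94.4 and 78.9 in hf libraries (log2 fold change 0.02, SE 0.19). Mki67 stood at 38.9 and 34.4 CPM in hfd and at 44.2, 49.9 and 72.9 in hf libraries, without overlap (log2 difference -0.60, SE 0.18, adjusted p = 0.53). Both hfd libraries lay above all hf libraries in 2 members and below them in 4, as they did in 12.8% and 10.8% of all genes. Cx3cr1pos HFD libraries share 1 sort label too, and the only hfd library there lay above hf1 to hf3 in both list means. These were 5.16 against 4.85 to 4.90 for S-phase and 4.47 against 3.72 to 3.79 for mitotic members. With 1 hfd library, name and library cannot be told apart in that group. The test of the difference itself, between the prefix effect in HFD KC and that in ATM HFD, called no member in edgeR (0 of 39; 6 S-phase and 13 mitotic members higher at an unadjusted p under 0.05; 0 in DESeq2) and 0% of all genes. All 39 estimates were positive, with medians of 0.44 and 0.76, and groups of this size leave them imprecise: for Top2a the estimate was 1.12 (SE 0.27, adjusted p = 0.58).

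**Figure D4:**
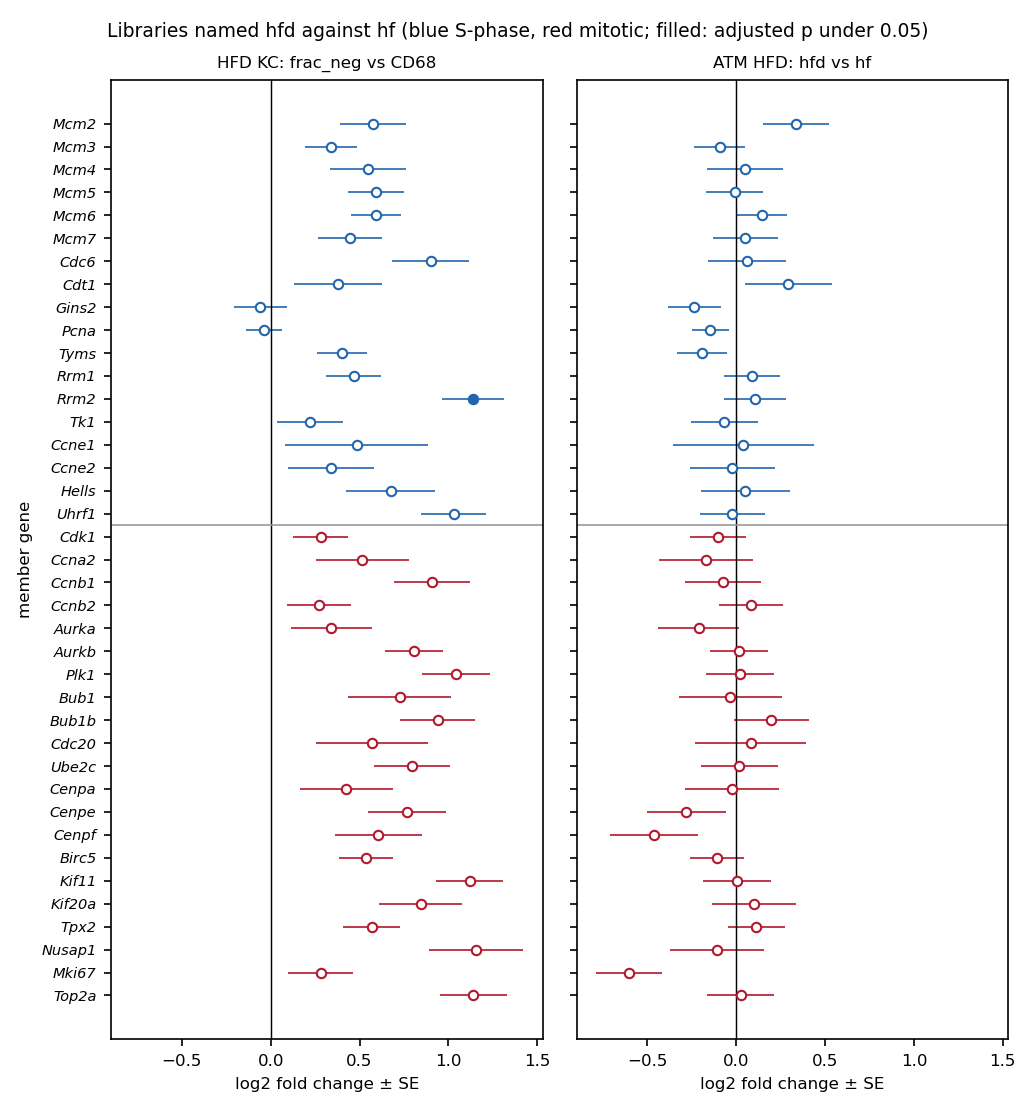
Log2 fold change ± SE of each member between libraries named hfd and hf, within HFD KC (left, frac_neg against CD68) and within ATM HFD (right); filled points passed the threshold. In HFD KC 37 of 39 points lie right of 0 and Rrm2 is filled, whereas in ATM HFD the points scatter about 0.

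Cx3cr1pos HFD was compared with HFD KC to ask how reporter-positive liver macrophages differ from Kupffer cells of the same diet. Here 8 S-phase members and 1 mitotic member rose: Mcm2, Mcm3, Mcm5, Mcm6 and Mcm7 of the helicase, Cdt1 and Gins2 of origin licensing and firing, Pcna, and Birc5, survivin of the chromosomal passenger complex. The rises ran from 1.295-fold (Pcna) to 1.61-fold (Mcm5). Among all genes 13.3% passed in edgeR, 5.85% as higher and 7.48% as lower. The median was 0.41 over S-phase and 0.37 over mitotic members, against 0.00 over all genes. Same-named libraries were not paired in this fit. Fits that pair them are given below.

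Pcna had the tightest difference, at 47.6, 46.4, 46.5 and 47.7 CPM in Cx3cr1pos HFD (hfd2 first) against 34.98 to 38.1 in HFD KC, with no overlap and a log2 fold change of 0.37 (SE 0.08, adjusted p = 0.0034). Its counts may include reads of the pseudogene Pcna-ps2, which the table lists too. Mcm5 stood at 116, 100.2, 108 and 107 CPM against 47.3 to 90.3 in HFD KC (log2 difference 0.69, SE 0.15, adjusted p = 0.0059). Mcm7 stood at 56.7, 41.1, 46.6 and 51.8 CPM against 23.5 to 38.5 (log2 difference 0.66, SE 0.15, adjusted p = 0.0080). These groups did not overlap in Mcm5 or Mcm7, and the same held for Mcm3, Gins2 and, among mitotic members, Mki67. Such separation was found upward in 5.89% and downward in 6.84% of all genes.

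Mcm2 stood at 36.5, 40.1, 33.4 and 35.95 CPM in Cx3cr1pos HFD, and at 23.2 and 33.6 in frac_neg and 14.9, 20.3 and 22.1 in CD68 libraries of HFD KC (log2 difference 0.68, SE 0.17, adjusted p = 0.015). Mcm6 stood at 84.6, 75.3, 64.1 and 76.6 CPM, with 57.8 and 71.6 in frac_neg and 39.7, 43.2 and 45.7 in CD68 libraries (log2 difference 0.54, SE 0.15, adjusted p = 0.024). In both genes hfd2 of HFD KC reached into the range of Cx3cr1pos HFD. Mcm3 stood at 165, 139, 164 and 147 CPM (log2 difference 0.41, SE 0.12, adjusted p = 0.031) and Gins2 at 19.002, 16.3, 17.8 and 17.98 against 12.3 to 14.9 in HFD KC (log2 difference 0.38, SE 0.11, adjusted p = 0.034). Cdt1, at 13.4, 14.9, 10.4 and 14.1 CPM in Cx3cr1pos HFD, stood at 7.75 and 12.2 in frac_neg and 5.67, 7.78 and 9.59 in CD68 libraries (log2 difference 0.62, SE 0.19, adjusted p = 0.038). Its groups overlapped.

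Birc5 stood at 26.6, 19.2, 19.8 and 19.6 CPM in Cx3cr1pos HFD, and at 16.4 and 19.7 in frac_neg and 12.8, 11.1 and 13.4 in CD68 libraries of HFD KC (log2 difference 0.54, SE 0.16, adjusted p = 0.033). The value of hfd2 exceeded the other Cx3cr1pos HFD libraries, and this was a pattern of many mitotic members. Top2a stood at 109 CPM in hfd2 and at 54.9, 47.8 and 52.2 in hf1 to hf3. Bub1, a checkpoint kinase, stood at 20.4 in hfd2 and at 5.85, 7.54 and 7.43 in the others. Over the mitotic list the mean log2 CPM was 4.47 in hfd2 against 3.72 to 3.79, and over the S-phase list 5.16 against 4.85 to 4.90. Without hfd2 of Cx3cr1pos HFD, 4 S-phase members and no mitotic member passed in edgeR against HFD KC, the mitotic median was 0.14, and 13.8% of all genes passed.

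The count of members called depended on the HFD KC libraries used. Against the CD68 libraries alone 11 S-phase and 7 mitotic members rose (10.3% of all genes passed), and against the frac_neg libraries alone 1 did, Pcna (0.40, adjusted p = 0.036; 9.53% of all genes). The mitotic median was 0.68 in the first case and -0.04 in the second. Same-named libraries of these 2 groups deviated together, and with the name as a replicate block over the 3 HFD groups 9 S-phase members and 1 mitotic member rose (13.2% of all genes), with Gins2 no longer past the threshold (adjusted p = 0.051). With the block and only these 2 groups, a fit chosen after seeing the data, 11 S-phase and 7 mitotic members rose (13.5%), but of the 8 S-phase calls above 5 were shared: Mcm2 (adjusted p = 0.051), Cdt1 (0.12) and Gins2 (0.084) did not pass. The count was 4 without hf1 of HFD KC, 5 without hf2 or hf3 of that group, and 4 without hf3 of Cx3cr1pos HFD. It was 11 without hfd2 of HFD KC, where the medians were 0.50 for S-phase and 0.49 for mitotic members. For these fits no share of all genes is given. Within the libraries named hf, 17 members rose (9.56% of all genes), and within those named hfd, where Cx3cr1pos HFD has 1 library, none was called (0 of 39, and 0.323% of all genes). Erythroid markers fell in 6 of 7, with sums of 5.74 to 21.1 CPM in Cx3cr1pos HFD and 15.9 to 99.2 in HFD KC, and B and plasma cell markers summed to 691 to 1895 and 341 to 768 CPM, 1 of 8 called higher. Hepatocyte markers fell in 5 of 9, with sums of 78.5 to 143 and 134 to 663 CPM, and sinusoidal endothelial markers in 5 of 8, with 809 to 958 and 1335 to 3447. The part of these markers in the result was not tested.

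Among other replication genes 8 of 38 were higher and 1 lower, against 5.85% and 7.48% of all genes. Rfc2 of the clamp loader rose from 42.1 ± 4.804 to 72.6 ± 6.71 CPM (SD, n = 5 and 4; 0.78, adjusted p = 2.8e-05) and Cdc7, the kinase that fires origins, from 4.61 ± 1.04 to 7.96 ± 0.576 (0.79, 0.0076), while Pola2 of polymerase alpha fell (-0.66, 0.032). Of 40 other mitotic genes 2 rose and 1 fell, no more than these shares. Fbxo5, an inhibitor of the anaphase-promoting complex, and Cdca8, a passenger protein, rose (0.85, 0.012, and 0.60, 0.025). Kif23, a kinesin of the central spindle, fell (-1.14, 0.015). Among 17 genes of cyclin D, CDKs and CDK inhibitors, 2 rose and 2 fell. Those that fell are the inhibitors of CDK4 and CDK6 at the Ink4 locus: Cdkn2b went from 2.69 ± 0.335 to 0.292 ± 0.1704 CPM (-3.22, 2.2e-05), and Cdkn2a, at 0.736 ± 0.362 CPM in HFD KC, lay under the floor of 3 counts in 3 of the 4 Cx3cr1pos HFD libraries. Cdk6 rose from 80.4 ± 17.5 to 132 ± 16.6 CPM (0.72, 0.0047) and its partner cyclin D2, Ccnd2, from 36.5 ± 21.1 to 87.8 ± 31.4 (1.27, 0.020). Of 21 regulators 4 rose, among them E2f2, an activating E2F, from 2.78 ± 1.03 to 10.1 ± 2.09 CPM (1.86, 0.00051).

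Adipose tissue macrophages held the most mitotic RNA. Against HFD KC, 20 of 21 mitotic members rose in ATM HFD, all but Plk1, together with 14 of 18 S-phase members, and 1 S-phase member, Tk1, fell. The medians were 0.92 for mitotic and 0.56 for S-phase members. The background was high: 49% of all genes passed in edgeR, 23.8% as higher and 25.2% as lower, with a median of 0.00, and the counts of members are to be read against these shares.

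Birc5 stood at 38.1, 31.3, 37.5, 41.2 and 33.6 CPM in ATM HFD (hfd1, hfd2, hf1, hf2 and hf3) against 11.1 to 19.7 in HFD KC, a log2 fold change of 1.31 (SE 0.15, adjusted p = 1.9e-06). The groups were far apart. Ccnb2, a B-type cyclin of CDK1, stood at 50.3, 42.7, 41.3, 51.3 and 39.4 CPM, and in HFD KC at 21.2 and 24.2 in frac_neg and 17.5, 15.2 and 23.8 in CD68 libraries (log2 difference 1.14, SE 0.16, adjusted p = 1.3e-05). Its pseudogene Ccnb2-ps is in the table too, so some of its reads may be shared. Cenpf stood at 12.2, 10.2, 14.6, 14.7 and 17.05 CPM, and in HFD KC at 6.85 and 7.58 in frac_neg and 5.06, 3.01 and 6.14 in CD68 libraries (log2 difference 1.26, SE 0.21, adjusted p = 8.3e-05). Ccnb1, the other B-type cyclin, stood at 14.4, 10.8, 13.2, 15.2 and 11.5 CPM, and in HFD KC at 7.81 and 7.78 in frac_neg and 3.68, 4.39 and 4.401 in CD68 libraries (log2 difference 1.22, SE 0.24, adjusted p = 0.00040). No ATM HFD library overlapped with HFD KC in these genes, and 14 of 21 mitotic members showed such separation, as did 16.4% of all genes (17.6% were separated downward).

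Nusap1, which bundles spindle microtubules, had the largest change of the 39, from 11.2 ± 5.28 to 30.1 ± 7.69 CPM (log2 difference 1.43, SE 0.31, adjusted p = 0.00096). Mki67 stood at 48.05 ± 15.04 CPM against 25.8 ± 3.34 (log2 difference 0.90, SE 0.16, adjusted p = 0.00020), and Ccna2, the A-type cyclin, at 9.19, 9.02, 8.401, 8.67 and 13.7 CPM against 3.64 to 7.18 (log2 difference 1.06, SE 0.20, adjusted p = 0.00031). Cenpe, a kinetochore motor, stood at 24.9, 18.7, 22.9, 25.9 and 30.5 CPM against 9.001 to 18.96 (log2 difference 0.85, SE 0.24, adjusted p = 0.0066), and its groups overlapped at 18.7 CPM in hfd2 of ATM HFD and 18.96 in hfd2 of HFD KC. Plk1 did not pass, at 15.4 ± 1.22 against 10.9 ± 4.74 CPM (log2 difference 0.49, SE 0.26, adjusted p = 0.13). The frac_neg libraries of HFD KC, at 13.6 and 18.03 CPM, were level with ATM HFD (13.9 to 17.1).

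In the S-phase set, Pcna stood at 69.2, 64.3, 72.01, 80.1 and 69.7 CPM in ATM HFD against 34.98 to 38.1 in HFD KC (log2 difference 0.97, SE 0.07, adjusted p = 1.1e-08), and Gins2 at 26.7, 27.3, 29.7, 37.2 and 28.6 CPM against 12.3 to 14.9 (log2 difference 1.13, SE 0.11, adjusted p = 2e-07). In both genes the groups were well apart. Mcm6 stood at 105, 98.3, 78.98, 105 and 91.6 CPM against 39.7 to 71.6 (log2 difference 0.89, SE 0.14, adjusted p = 6.8e-05), while its partner Mcm3 did not pass, at 122 ± 19.3 against 116 ± 15.9 CPM (log2 difference 0.07, SE 0.11, adjusted p = 0.62). Mcm4 and Cdc6 did not pass either (0.20, adjusted p = 0.39, and 0.49, 0.076). Tk1, the thymidine kinase of the salvage route, went the other way, at 52.7, 46.7, 43.5, 59.6 and 53.1 CPM against 78.7 and 83.6 in frac_neg and 66.1, 88.2 and 54.3 in CD68 libraries (log2 difference -0.54, SE 0.13, adjusted p = 0.0019). The lowest HFD KC library, hf3, lay within the range of ATM HFD. Tyms, of the de novo route to the same nucleotide, rose (log2 difference 0.48, SE 0.13, adjusted p = 0.0069).

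Of these calls, 14 were made against the frac_neg libraries of HFD KC alone, where 37.9% of all genes passed: Mcm6, Gins2, Pcna and Ccne2 higher and Tk1 lower in the S-phase set, and Ccna2, Ccnb1, Ccnb2, Aurka, Cenpa, Cenpf, Birc5, Nusap1 and Mki67 higher in the mitotic set. Against the CD68 libraries alone there were 37, with 43.7% of all genes. Without hfd2 of HFD KC there were 37. Within the libraries named hf 35 members were called (40% of all genes), and within those named hfd 10 (29.5%). The 7 tested stromal and adipocyte markers were all higher in ATM HFD, with sums of 105 to 283 CPM against 18.9 to 44.1, although Plin1 and Cfd were at 0 in most of the 17 libraries. Hepatocyte markers, 9 of 9 lower, summed to 11.2 to 35.5 against 134 to 663 CPM. Markers of Kupffer cells were lower in 7 of 7, sinusoidal endothelial in 7 of 8 and erythroid in 6 of 7 tested. Dendritic cell markers were lower in 6 of 8, and those of T and NK cells in 5 of 12. Of 8 B and plasma cell markers 3 were lower and 1 higher. Of 6 tested neutrophil and myeloid progenitor markers 2 were higher. The part of these markers in the result was not tested.

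**Figure D5:**
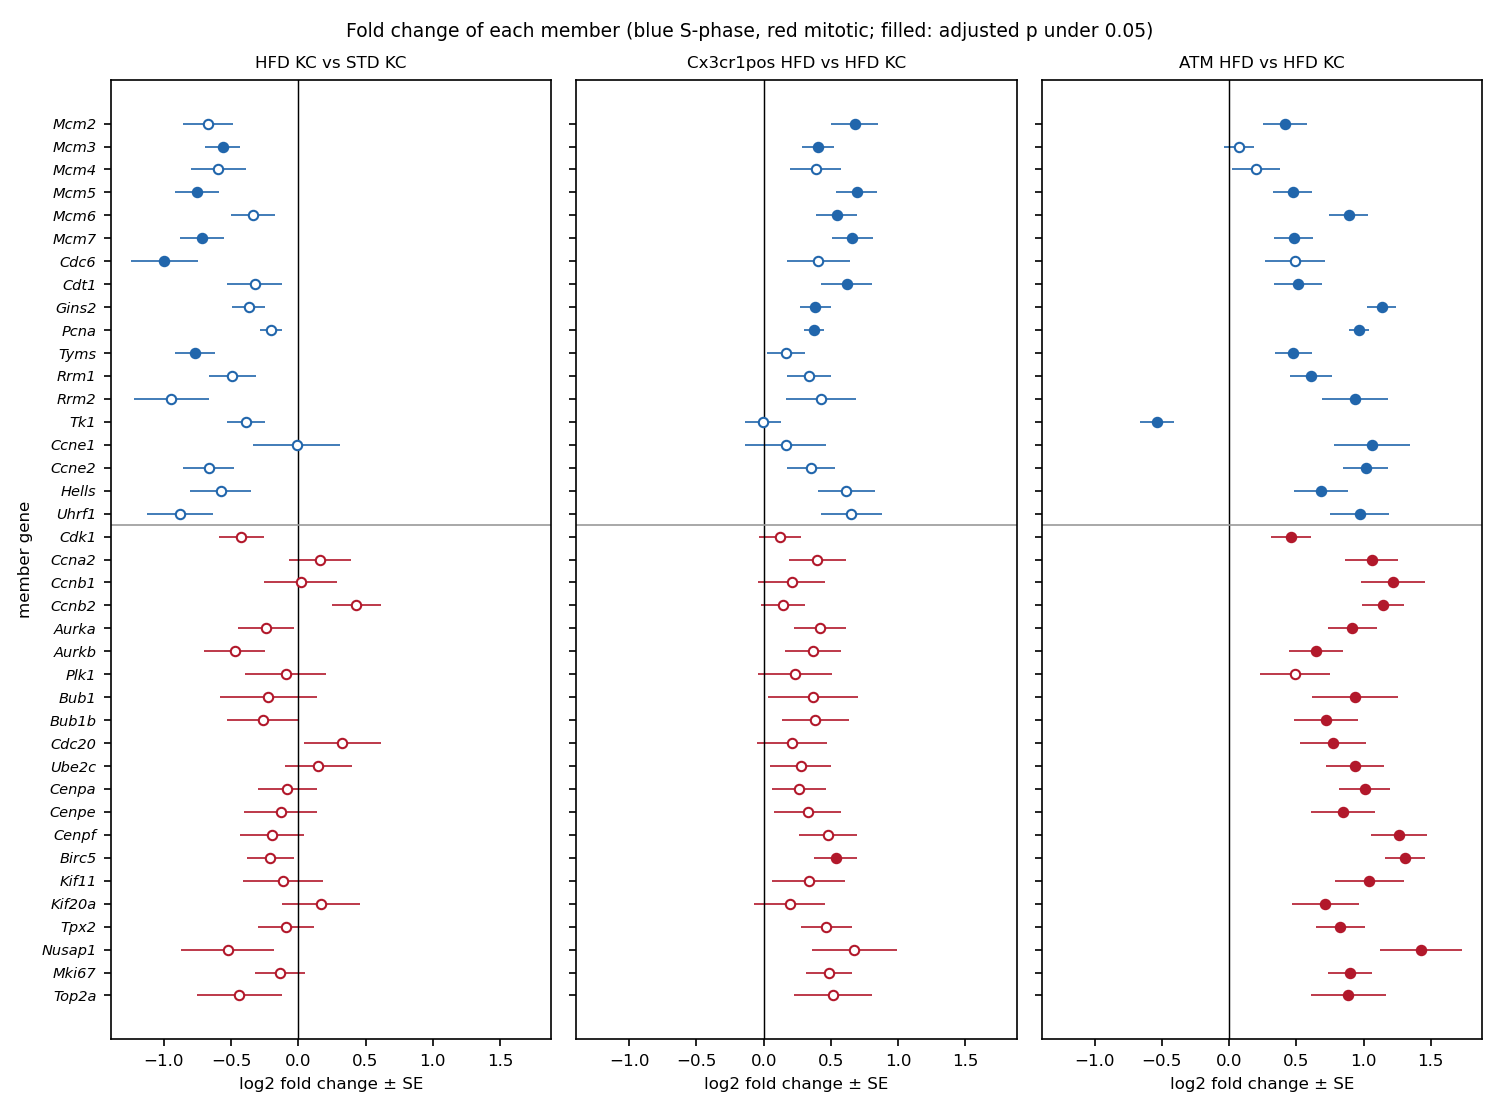
Log2 fold change ± SE of each member in 3 comparisons (panels), with S-phase members above and mitotic members below the grey line; filled points passed an adjusted p of 0.05. S-phase points lie left of 0 in HFD KC against STD KC, and nearly all points lie right of 0 in ATM HFD against HFD KC, with Tk1 as the exception.

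Other mitotic genes matched this, with 34 of 40 higher and 2 lower in ATM HFD, against 23.8% and 25.2% of all genes. Mad2l1 of the spindle checkpoint rose from 14.1 ± 1.38 to 25.99 ± 2.81 CPM (SD, n = 5 in each group; 0.88, adjusted p = 9.1e-06), and Espl1, the separase that cuts cohesin, from 3.08 ± 1.65 to 14.6 ± 1.71 (2.25, 2.6e-05). Its inhibitor Pttg1 fell from 84.9 ± 8.75 to 37.6 ± 3.27 CPM (-1.18, 3.2e-08), and Kif23 fell too (-0.92, 0.0093). Of 38 other replication genes 20 rose, such as Rfc4 (0.86, 8.2e-06) and Cdc7 (1.26, 1.4e-05), and Pola2 fell (-1.13, 6.8e-05).

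Regulators moved both ways, in a comparison where 23.8% of all genes were called higher and 25.2% lower. Foxm1, a transcription factor of mitotic genes, rose from 2.41 ± 0.559 to 6.41 ± 1.82 CPM (1.41, adjusted p = 3e-05) and Lin9 of the DREAM and B-MYB complexes from 4.54 ± 1.27 to 11.8 ± 2.28 (1.37, 3.1e-05), among 10 of 21 regulators higher. Among the 4 lower, Myc fell from 121 ± 24.2 to 53.8 ± 5.46 CPM (-1.17, 8.7e-07). Of 17 genes of cyclin D, CDKs and CDK inhibitors 6 rose and 5 fell. The risers include 3 CDK inhibitors, Cdkn1a (p21) from 55.6 ± 27.6 to 183 ± 20.4 CPM (1.72, 8.9e-05), Cdkn2c (p18) from 4.79 ± 0.585 to 14.8 ± 0.889 (1.63, 1.1e-08), and Cdkn2d (p19) (1.19, 2e-05), as well as Cdk6 (1.24, 2.6e-06). Ccnd2, named here after its values were seen, fell from 36.5 ± 21.1 to 10.2 ± 1.48 CPM (-1.83, 0.00025). Of 10 macrophage growth signals 2 rose and 5 fell: Csf1r, the receptor for the growth factor CSF1, stood at 1936 ± 333 against 4991 ± 735 CPM (-1.37, 2.7e-07), and Egr2 rose (2.78, 8.8e-07).

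Compared with Cx3cr1pos HFD, ATM HFD held more of 4 S-phase members (Gins2, Pcna, Ccne1 and Ccne2) and of 8 mitotic members (Ccna2, Ccnb1, Ccnb2, Aurka, Ube2c, Cenpa, Cenpf and Birc5), and less of Mcm3 and Tk1. Of all genes 39.7% passed in edgeR, 18.9% as higher and 20.8% as lower. Medians were 0.56 for mitotic and 0.18 for S-phase members, against -0.03 over all genes. Pcna stood at 64.3 to 80.1 CPM in ATM HFD and 46.4 to 47.7 in Cx3cr1pos HFD (log2 difference 0.59, SE 0.08, adjusted p = 1.2e-05), and Ccnb2 at 39.4 to 51.3 and 31.1, 20.6, 18.003 and 20.3 (log2 difference 1.0004, SE 0.17, adjusted p = 0.00017). Neither overlapped. Of the 39 members, 10 lay wholly above Cx3cr1pos HFD and 1 wholly below it, as did 15.5% and 16.2% of all genes. Ccne2, a cyclin E of origin firing, stood at 14.1 ± 3.16 and 8.88 ± 1.51 CPM (log2 difference 0.66, SE 0.18, adjusted p = 0.0070), and Tk1 at 43.5 to 59.6 and 73.5, 63.4, 84.5 and 73.9 (log2 difference -0.53, SE 0.13, adjusted p = 0.0042).

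Library hfd2 of Cx3cr1pos HFD sets this count: without it 8 S-phase and 17 mitotic members were higher and 1 S-phase member lower, the mitotic median was 0.86, and 38.7% of all genes passed. Within the libraries named hf 27 members were called (33.1% of all genes), and within those named hfd, where Cx3cr1pos HFD has 1 library, 1 (13.3%), with a mitotic median of -0.04 and 11 of 21 values negative. The call for Mcm3 held in 6 of 18 alternatives (adjusted p = 0.070 with DESeq2), that for Tk1 in 18 of 18. Stromal and adipocyte markers rose in 7 of 7, with sums of 105 to 283 CPM in ATM HFD and 16.4 to 29.98 in Cx3cr1pos HFD. Hepatocyte markers fell in 8 of 9 (11.2 to 35.5 and 78.5 to 143 CPM), Kupffer cell markers in 7 of 7 and sinusoidal endothelial markers in 6 of 8 (266 to 838 and 809 to 958). Markers of B and plasma cells fell in 5 of 8 (356 to 1287 and 691 to 1895), of T and NK cells in 6 of 12 (15.7 to 48.4 and 38.8 to 99.3) and of dendritic cells in 4 of 8 (21.4 to 30.9 and 59.6 to 139.8). Their part in the result was not tested. Of 40 other mitotic genes 17 were higher, such as Wee1, a kinase that restrains CDK1, at 4.35 ± 1.64 against 0.7301 ± 0.166 CPM (2.57, adjusted p = 0.00011), and Pttg1 was lower (-0.91, 2.1e-06). Of 38 other replication genes 4 were higher and 1 lower, including Orc6 of the origin recognition complex (0.43, 0.0053), against 18.9% and 20.8% of all genes. Ccnd2 stood at 10.2 ± 1.48 CPM in ATM HFD against 87.8 ± 31.4 in Cx3cr1pos HFD (-3.10, 3.7e-06), and Cdkn2b at 1.84 ± 0.286 against 0.292 ± 0.1704 (2.67, 1.9e-05).

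Cx3cr1pos HFD and STD KC, which differ in diet as well as in sort, gave the fewest calls of the comparisons across groups. Tyms fell and Ccnb2 rose, 2 of 39 members, where 24.1% of all genes passed in edgeR, 11.9% as higher and 12.1% as lower. Tyms stood at 25.7, 19.3, 18.003 and 18.9 CPM in Cx3cr1pos HFD against 28.8, 31.6 and 32.7 in STD KC (log2 difference -0.60, SE 0.16, adjusted p = 0.012), with no overlap. Ccnb2 stood at 31.1, 20.6, 18.003 and 20.3 CPM against 16.3, 15.3 and 13.8 (log2 difference 0.57, SE 0.19, adjusted p = 0.038). Of the 39 members, 4 lay wholly below STD KC and 4 wholly above it, as did 19% and 17.7% of all genes. Medians were -0.11 for S-phase and 0.22 for mitotic members, and without hfd2 of Cx3cr1pos HFD they were -0.19 and -0.03. The count was 1 without any one of the STD KC libraries, and Ccnb2 did not pass without hfd2 of Cx3cr1pos HFD (0.35, adjusted p = 0.14). Within the libraries named hf 3 S-phase members and 1 mitotic member were lower and the mitotic median was 0.01 (24.5% of all genes passed). Within those named hfd, where Cx3cr1pos HFD has 1 library, 4 mitotic members were higher and the mitotic median was 0.81 (11%). Markers of B and plasma cells were higher in 8 of 8, with sums of 691 to 1895 CPM in Cx3cr1pos HFD and 64.9 to 201 in STD KC, and of T and NK cells in 8 of 12 (38.8 to 99.3 and 26.4 to 29.2). Kupffer cell markers were lower in 6 of 7, sinusoidal endothelial markers in 6 of 8 (809 to 958 and 2468 to 3422) and hepatocyte markers in 4 of 9 (78.5 to 143 and 142 to 299.5). The part of these markers was not tested. Outside the list, Cdkn2b was lower (-2.49, adjusted p = 0.00021) and E2f2 higher (1.72, 0.0023) than in STD KC. Comparisons against HFD KC share its 5 libraries, so calls of 1 member in several of them are not independent.

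The members not yet given by value followed these patterns. In the order of groups used above, chow Kupffer cells first and adipose macrophages last, Rrm1, the large subunit of ribonucleotide reductase, had group means of 105, 74.7, 94.3 and 114 CPM. Hells, a chromatin remodeller, had 9.87, 6.62, 10.1 and 10.6, and Ccne1, the scarcest S-phase member per kilobase, 1.55, 1.54, 1.73 and 3.21. All 3 were higher in ATM HFD than in HFD KC (0.61, 0.68 and 1.06 on the log2 scale). Cdk1, the kinase of mitotic entry, had means of 33.6 ± 2.499, 25.1 ± 3.01, 27.3 ± 7.31 and 34.5 ± 5.703 CPM (SD). It was the 1 mitotic member of 21 with every HFD KC library below every STD KC library. That separation was seen in 6.58% of all genes, a share that 1 of 21 does not exceed. In ATM HFD against HFD KC the kinases Aurka, Aurkb, Bub1 and Bub1b rose by 0.92, 0.65, 0.94 and 0.72 on the log2 scale. Cdc20 and Ube2c, which work with the anaphase-promoting complex, rose by 0.77 and 0.94. Cenpa, the histone of the centromere, rose by 1.01, and the spindle proteins Kif11, Kif20a and Tpx2 by 1.04, 0.72 and 0.83.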

How the data were processed

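RNA of 17 libraries was sequenced as single reads after SMARTer library preparation, per the labels' protocols. Reads were aligned with STAR 2.0.4b and counted per gene with featureCounts 1.4.5, per the submitters' processing notes. The genome build, the strand setting and the handling of duplicates and molecular indexes are not given in the sources used here, so genes that share or overlap sequence are uncertain. The authors deposited raw counts per gene. Of 40824 entries, 276 repeats of an identifier were removed, which left 40548 genes. Counts were scaled by trimmed mean of M values in edgeR 4.0.16 (R 4.3.3, limma 3.58.1), filtered with filterByExpr (15285 genes kept), and tested with edgeR's quasi-likelihood test, with Benjamini-Hochberg adjustment over all genes kept and a threshold of 0.05. All groups shared 1 fit with a coefficient per group, and a second fit split groups by name prefix for the differences within HFD KC and ATM HFD. Log2 CPM used a prior count of 2. The SE is the log2 fold change divided by the root of F. Totals of 25644835 to 38207943 counts put the floor of 3 counts near 0.1 CPM, which covers counting error only. The test was checked on simulated data.

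The members and lists were chosen with earlier results of these data known. Levels in every library are given for members that passed in HFD KC against STD KC, in Cx3cr1pos HFD against HFD KC or between the HFD KC sorts, for the 3 members of each set with the smallest p in other comparisons, and for Mki67, Top2a, Pcna and Mcm2. Of other lists, up to 4 called genes with the smallest p per comparison are named, and Pola2, Kif23 and Bub1 were added after their values were seen. Libraries of HFD KC and Cx3cr1pos HFD with the same name deviated together (r = 0.166 to 0.301 over 4 pairs). Pairs with ATM HFD gave -0.02 to 0.204. The main fit paired no libraries, since no label says that same-named libraries share an animal. The names entered only as a replicate block among the alternatives. Alternatives were DESeq2 1.42.0, other scalings, no filter on low counts, fewer libraries or groups, a name prefix term and a replicate block. Promoter windows are RefSeq entries on GRCm38.p6.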

Additional observations from a re-analysis of the deposited data

Results flagged for a closer look

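Among 123 sets of values in groups of 4 or 5 libraries, 15 held a library far from the others. For a single set chance gives about 1 in 20. The sets are not independent, since members vary together within a library and the list means come from the same members. The count is therefore not to be read against that rate. Library hfd2 of Cx3cr1pos HFD was the high one in most. Its CPM was 127.8 for Rrm1 (80.58 to 84.99 in the other libraries of the group), 108.9 for Top2a (47.79 to 54.93), 42.22 for Bub1b (24.25 to 26.92), 29.53 for Nusap1 (13.08 to 15.53), 26.64 for Birc5 (19.16 to 19.76) and 26.25 for Cenpe (13.88 to 14.38). It was 25.73 for Tyms (18.003 to 19.28), 20.71 for Plk1 (9.488 to 11.01) and 20.4 for Bub1 (5.852 to 7.542). The mean log2 CPM of this library was 5.157 over S-phase members (4.853 to 4.898 in the others) and 4.473 over mitotic members (3.725 to 3.794).

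Library hfd2 of HFD KC was high for Ccna2, at 7.184 CPM against 3.638 to 4.657. In ATM HFD, hf3 was high for Ccna2 (13.69 CPM against 8.401 to 9.19), hf2 for Gins2 (37.2 against 26.71 to 29.68) and hfd1 for Tpx2 (36.35 against 30.44 to 31.9).

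For Cenpf and Mki67 the libraries named hfd and hf did not overlap in either HFD KC or ATM HFD, and the direction was opposite. The difference of the log2 differences was 1.07 for Cenpf (adjusted p = 0.93 in edgeR's quasi-likelihood test) and 0.88 for Mki67 (adjusted p = 0.8211), so neither passed.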

How the results depend on the processing

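Main counts of members called were 5 in HFD KC against STD KC, 9 in Cx3cr1pos HFD against HFD KC, 35 in ATM HFD against HFD KC, 14 in ATM HFD against Cx3cr1pos HFD, 2 in Cx3cr1pos HFD against STD KC and 1 in frac_neg against CD68 libraries of HFD KC. The cause of each shift was not tested, beyond the loss of libraries where libraries were left out. Shares of all genes are given above for part of these fits only, and the other counts have none beside them. HFD KC against STD KC gave 9 with DESeq2, 2 with the compared groups only, 2 with a name prefix term, 14 with hf libraries, 0 with hfd libraries, 0 with frac_neg and 13 with CD68 libraries, and 0 to 8 when 1 library was left out. Cx3cr1pos HFD against HFD KC gave 14 with a prefix term, 17 with hf, 0 with hfd, 1 with frac_neg and 18 with CD68 libraries, and 4 to 11 with 1 library left out. ATM HFD against HFD KC gave 10 with hfd and 14 with frac_neg libraries. ATM HFD against Cx3cr1pos HFD gave 27 with hf and 1 with hfd libraries, and 10 to 26 with 1 library left out. Cx3cr1pos HFD against STD KC gave 1 without a filter, 4 with the compared groups only, 4 with a prefix term, 4 with hf, 4 with hfd, and 1 to 3 with 1 library left out. Frac_neg against CD68 gave 12 with DESeq2, 0 with RLE size factors, 0 with library totals, 5 without a filter, 0 with the compared groups only, and 0 to 10 with 1 library left out. Fits with frac_neg or CD68 libraries alone and the 2-group replicate block were chosen after seeing the data.

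With a replicate block over 3 groups the counts were 10, 37 and 17 for Cx3cr1pos HFD against HFD KC and for ATM HFD against HFD KC and against Cx3cr1pos HFD. With the replicate block over HFD KC and Cx3cr1pos HFD alone the count was 18.

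Directions were followed for called members, and for Mki67, Top2a, Pcna and Mcm2 in the comparisons across groups. Among these, directions turned only for log2 fold changes that did not pass, and for Aurka. Mcm2 in Cx3cr1pos HFD against STD KC was -0.016 with DESeq2, -0.013 with RLE size factors, -1e-04 with library totals, and -0.12 to 0.080 with 1 library left out. Top2a was -0.27 there with hf libraries, and -0.31 to 0.19 with 1 library left out. In HFD KC against STD KC, Mki67 was 0.028 with hfd and 0.026 with frac_neg libraries, and Top2a was 0.13 and 0.13. In ATM HFD against Cx3cr1pos HFD with hfd libraries, Aurka was -0.056 and Top2a -0.34. Top2a in Cx3cr1pos HFD against HFD KC was -0.056 with frac_neg libraries. Of the alternative values followed, 1290 kept direction and side of the threshold, 206 no longer passed, 21 newly passed and 17 turned. Members outside this set turned too and are not in these counts. In HFD KC against STD KC, 15 of 21 mitotic values were negative in the main fit, and 3 with frac_neg libraries alone. In Cx3cr1pos HFD against HFD KC, 0 were negative in the main fit and 13 with frac_neg libraries alone. Depth limits scarce genes such as Cdkn2a.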
